A study of Mus musculus with 14 samples.

Results

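Interferon-inducible GTPases were measured in the brains of aged mice carrying familial Alzheimer's disease transgenes, with and without the mitochondrial complex I inhibitor CP2. The set was chosen by gene name and holds 10 of the 43346 genes in the table, namely 4 immunity-related GTPases (IRG: Iigp1, Igtp, Irgm1 and Irgm2) and 6 guanylate-binding proteins (GBP: Gbp2, Gbp3, Gbp5, Gbp6, Gbp7 and Gbp9). All 10 passed the filter on low values in each of the 3 comparisons. RNA sequencing of 14 female mice, all on the C57BL/6;SJL-Tg strain background and 23 months old, gave 4 non-transgenic littermates (NTG, mice 7 to 10), 5 vehicle-treated double transgenic APP/PS1 mice (mice 16 to 20) and 5 CP2-treated APP/PS1 mice (mice 21 to 25). From 9 months of age, for 14 months, CP2 was added to the drinking water (25 mg/kg/day), with 0.1% PEG as its vehicle, and the other mice drank the vehicle alone. The labels call the vehicle mice non-treated. The APP/PS1 line carries mutant APP and PS1 transgenes, the promoters of which are not given in the sources used here, and a group of NTG mice given CP2 was not used here. Each library is 1 mouse and holds a cross-section of brain with hippocampus and cortex, so that the cell types are mixed and more cells of a type cannot be told apart from more RNA per cell.

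IRG and GBP proteins are GTPases that interferons switch on in most cell types to defend the cell interior against bacteria and parasites. Effector IRG proteins such as Iigp1 load onto the vacuole that surrounds a parasite and break it open, whereas Irgm1, Irgm2 and Igtp (also called Irgm3) sit on the cell's own membranes and keep the effectors inactive there. GBP proteins coat bacteria and vacuoles in large assemblies and promote their lysis and the activation of inflammasomes. Interferon gamma acts at GAS elements in promoters and, through IRF1, at ISRE elements, while type I interferons act at ISRE elements through a complex that holds IRF9.

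The genes lie on 4 chromosomes. In mm10 coordinates of the count table, Iigp1 (ENSMUSG00000054072) lies on chromosome 18. Irgm1 (ENSMUSG00000046879) lies at chr11:48861968-48871683, Igtp (ENSMUSG00000078853) at chr11:58199556-58207591 and Irgm2 (ENSMUSG00000069874) at chr11:58199618-58222779. Gbp2 (ENSMUSG00000028270, chr3:142620602-142638008), Gbp3 (ENSMUSG00000028268, chr3:142560052-142573209), Gbp5 (ENSMUSG00000040264, chr3:142496934-142619179) and Gbp7 (ENSMUSG00000040253, chr3:142530338-142550083) share a cluster on chromosome 3. Gbp6 (ENSMUSG00000079362, chr5:105215699-105293699) and Gbp9 (ENSMUSG00000029298, chr5:105078394-105139539) lie on chromosome 5.

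Some of these rows count reads of more than a single gene. The Gbp5 row has the identifier that GENCODE M21 (GRCm38) gives to Gbp2b, and it spans both Gbp5 (ENSMUSG00000105504) and Gbp2b, with a coding length of 5844 bases against 2823 exon bases for Gbp2b. The Gbp6 row spans Gbp10 (ENSMUSG00000105096) and Gbp6 (ENSMUSG00000104713), and 98.79% of the 101-base exon windows of that identifier's M21 gene model also occur in another gene. Igtp and Irgm2 overlap on the same strand and share 162 exon bases, or 8.01% of those of Igtp and 4.39% of those of Irgm2, and reads there were counted for both. Gbp7 shares 11.35% of its exon bases with Gm43802. Values of the Gbp5 and Gbp6 rows are therefore values of gene pairs, and the shares of their members cannot be told apart.

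The promoters show the interferon elements that these genes have in common. RefSeq promoter windows (GRCm38.p6, 250 bases before to 50 after the transcription start) were found for 7 of the 10 genes, and all 7 held the ISRE core GAAANNGAA on either strand (TTCNNTTTC on the other), against 9.76% of all 27025 genes with a window and 8.56% of all 32851 windows. The GAS core TTCNNNGAA, which reads the same on both strands, was held by 4 of the 7 (Igtp, Irgm2, Gbp5 and Gbp7), against 9.55% of all genes with a window. In these 4 genes no GAS core overlapped an ISRE core. A second window of Gbp3 held neither core. The cores of Irgm1 began 30 and 24 bases before the start and that of Gbp2 58 bases before it. For 5 genes 100 bases upstream of the start are printed, on the forward strand, to show where the core lies. Capitals mark ISRE cores.

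Igtp, chr11:58199456-58199555, core 34 bases before the start: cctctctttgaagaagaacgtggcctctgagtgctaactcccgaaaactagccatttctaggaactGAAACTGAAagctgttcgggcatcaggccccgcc
Irgm2, chr11:58214877-58214976, core 64 bases before the start: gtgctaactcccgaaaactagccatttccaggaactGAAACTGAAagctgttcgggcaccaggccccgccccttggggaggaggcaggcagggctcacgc
Gbp3, chr3:142559944-142560043, overlapping cores 44 and 38 bases before the start: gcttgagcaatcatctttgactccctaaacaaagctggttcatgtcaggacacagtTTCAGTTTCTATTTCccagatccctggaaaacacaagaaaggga
Gbp5, chr3:142496750-142496849, core 164 bases before the start: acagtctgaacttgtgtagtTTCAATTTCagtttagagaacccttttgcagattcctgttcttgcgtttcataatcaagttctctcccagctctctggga
Gbp7, chr3:142530236-142530335, core 52 bases before the start: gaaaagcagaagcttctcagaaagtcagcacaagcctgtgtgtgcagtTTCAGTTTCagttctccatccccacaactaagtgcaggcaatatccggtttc

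A match of these letters is a description and not a measured binding site.

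Depth ranged from 70548781 to 106235625 counts per library, and values are given as CPM, the counts of a gene as a share of its library scaled to a fixed total, with TMM factors. 2 vehicle-treated APP/PS1 libraries stood apart in markers of striatum or endothelium. In mouse 16, 8 striatum marker genes summed to 2518 CPM, against 199.5 to 385 CPM in the other 13 mice. Cd4 was 21.6 CPM in mouse 16 and 0.272 to 1.51 CPM elsewhere. In mouse 18, 9 of 10 endothelial markers were the highest of all 14 mice and summed to 324.5 CPM, against 213.8 to 280.5 CPM elsewhere. These mice are also the lowest and the highest of the vehicle-treated APP/PS1 mice for most of the GTPases, and results are given with and without them. Choroid plexus varied in all groups: its 6 markers summed to 20.37 to 950.8 CPM in NTG mice. The sums were 26.49 to 1361 CPM in vehicle-treated and 188.7 to 744.6 CPM in CP2-treated mice. Leaving out mice 16 and 18 does not remove this variation, since vehicle-treated mice 19 and 17 were at 37.59 and 1361 CPM. How much of the results goes with these differences in tissue was not tested.

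The first comparison asked how vehicle-treated APP/PS1 mice differed from NTG mice of the same age. All 10 GTPases had a higher mean in APP/PS1 mice, by 1.77-fold for Gbp7 to 3.47-fold for Iigp1. An adjusted p under 0.05 (edgeR quasi-likelihood test with Benjamini-Hochberg adjustment over 16417 genes) was reached by 5 of the 10: Igtp and Irgm1 of the IRG, and Gbp2, Gbp3 and Gbp5 of the GBP. Of all genes tested 4.34% rose by that rule. At an unadjusted p under 0.05 all 10 were higher, against 10.6% of all genes. The median log2 fold change was 1.22 over the IRG and 1.24 over the GBP, and -0.00 over all genes tested.

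**Figure D1:**
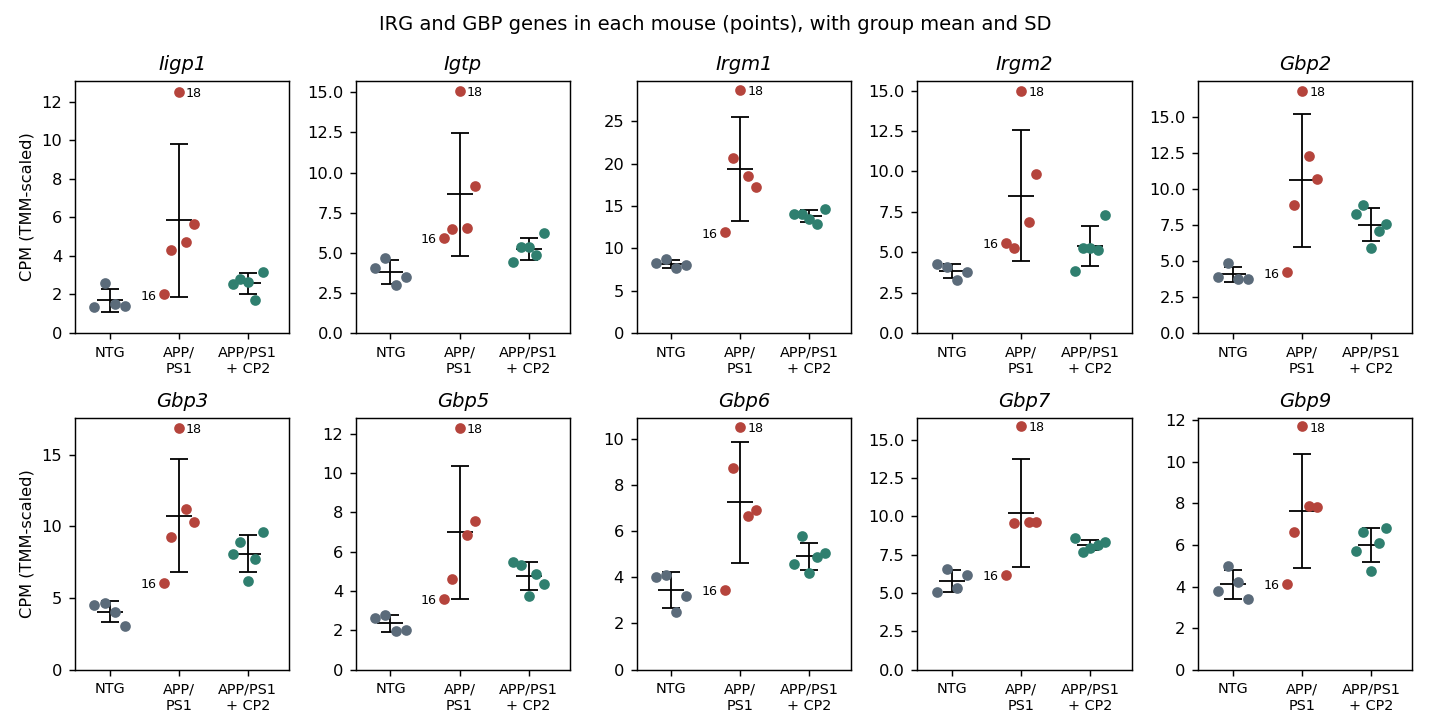
CPM of each GTPase (vertical axes, from 0) in every mouse (points) of the NTG, vehicle-treated APP/PS1 and CP2-treated APP/PS1 groups, with group mean (bar) and SD (whiskers). Vehicle-treated mice 16 and 18 are marked, and mouse 18 is the highest of the 14 mice in all 10 panels.

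Among the IRG, Irgm1, a regulator on host membranes, had the smallest spread. It measured 8.23, 8.76, 7.68 and 8.06 CPM in NTG mice 7 to 10, 11.9, 20.7, 28.7, 18.5 and 17.2 CPM in vehicle-treated APP/PS1 mice 16 to 20, and 14, 14.1, 13.5, 12.9 and 14.7 CPM in mice 21 to 25, given CP2. Every APP/PS1 mouse, treated or not, lay above every NTG mouse. Irgm1 rose by 1.25 ± 0.21 (SE) on the log2 scale in vehicle-treated APP/PS1 mice (edgeR adjusted p = 0.00611) and passed in all 9 fits with a single mouse removed.

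Iigp1, the effector of the set, had the widest spread of the 10 among NTG and among vehicle-treated APP/PS1 mice. It measured 1.34, 2.6, 1.48 and 1.39 CPM in the NTG mice, 2.0, 4.33, 12.5, 4.74 and 5.65 CPM in the vehicle-treated, and 2.53, 2.78, 2.66, 1.70 and 3.18 CPM in the CP2-treated APP/PS1 mice, in the order of their numbers. Mouse 16 lay within the NTG range and the other 4 vehicle-treated mice above it. The log2 fold change was the largest of the set, 1.79 ± 0.47, but the adjusted p of 0.0553 (edgeR) missed the threshold. Without mouse 16 it was 2.02 with an adjusted p of 0.00694.

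Igtp and Irgm2, regulators that lie side by side and share exon bases, gave values close to each other. Igtp measured 4.03, 4.69, 2.97 and 3.49 CPM in the NTG mice, 5.92, 6.47, 15.1, 6.53 and 9.17 CPM in the vehicle-treated, and 4.43, 5.38, 5.36, 4.85 and 6.21 CPM in the CP2-treated mice. Irgm2 measured 4.26, 4.08, 3.26 and 3.76 CPM in the NTG mice, 5.59, 5.25, 15.0, 6.84 and 9.83 CPM in the vehicle-treated, and 3.81, 5.26, 5.27, 5.16 and 7.27 CPM in the CP2-treated mice. For both genes all vehicle-treated APP/PS1 mice lay above all NTG mice, and mice 18 and 20 were the highest. Igtp rose by 1.2 ± 0.29 on the log2 scale (edgeR adjusted p = 0.0373). Irgm2 differed by 1.15 ± 0.30 (edgeR adjusted p = 0.0537). The Igtp call was lost without any of the 4 NTG mice or without mouse 20, with adjusted p values up to 0.123.

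Among the GBP, the 3 that passed lie on chromosome 3, in the cluster that also holds Gbp7, which did not pass. Gbp2, which coats parasite vacuoles, measured 3.91, 4.83, 3.75 and 3.77 CPM in the NTG mice, 4.22, 8.87, 16.8, 12.3 and 10.7 CPM in the vehicle-treated, and 8.23, 8.86, 5.86, 7.10 and 7.53 CPM in the CP2-treated mice. Mouse 16 lay below NTG mouse 8, and the other vehicle-treated mice lay above all NTG mice. Gbp2 rose by 1.39 ± 0.32 on the log2 scale (edgeR adjusted p = 0.0338), a call that was kept without mouse 16 (adjusted p = 0.000459) and lost with any other mouse left out (adjusted p up to 0.109).

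Gbp3 measured 4.52, 4.64, 4.03 and 3.05 CPM in the NTG mice, 6.06, 9.27, 16.9, 11.2 and 10.3 CPM in the vehicle-treated, and 8.11, 8.90, 6.17, 7.74 and 9.59 CPM in the CP2-treated mice. No mouse of either APP/PS1 group overlapped the NTG mice. Gbp3 rose by 1.41 ± 0.26 (edgeR adjusted p = 0.0114), and the call held in 9 of 9 fits without 1 mouse.

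The Gbp5 row, which joins Gbp5, a promoter of NLRP3 inflammasome assembly, and Gbp2b, measured 2.63, 2.78, 1.97 and 2.03 CPM in the NTG mice, 3.60, 4.61, 12.3, 6.87 and 7.58 CPM in the vehicle-treated, and 5.49, 5.31, 3.76, 4.89 and 4.38 CPM in the CP2-treated mice. The NTG mice were again below all others. It rose by 1.58 ± 0.33 (edgeR adjusted p = 0.0202), which was lost without NTG mouse 9 or 10 (adjusted p = 0.0764 and 0.0667).

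The remaining GBP did not pass the adjusted threshold. The Gbp6 row measured 4.02, 4.09, 2.48 and 3.21 CPM in the NTG mice, 3.47, 8.71, 10.5, 6.63 and 6.92 CPM in the vehicle-treated, and 4.59, 5.80, 4.2, 4.89 and 5.05 CPM in the CP2-treated mice. Gbp7 measured 5.08, 6.60, 5.35 and 6.19 CPM in the NTG mice, 6.19, 9.60, 15.9, 9.65 and 9.66 CPM in the vehicle-treated, and 8.58, 7.69, 7.95, 8.16 and 8.31 CPM in the CP2-treated mice. Gbp9 measured 3.80, 5.0, 4.22 and 3.38 CPM in the NTG mice, 4.12, 6.62, 11.7, 7.89 and 7.82 CPM in the vehicle-treated, and 5.73, 6.61, 4.73, 6.07 and 6.80 CPM in the CP2-treated mice. For each of these 3, vehicle-treated mouse 16 lay within the NTG range and mice 17 to 20 above it. The log2 fold changes were 1.08 ± 0.29 for Gbp6, 0.82 ± 0.23 for Gbp7 and 0.91 ± 0.26 for Gbp9, with edgeR adjusted p values of 0.0596, 0.069 and 0.0755.

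Across the set, CPM of the vehicle-treated APP/PS1 and NTG mice did not overlap for 5 genes (Igtp, Irgm1, Irgm2, Gbp3 and Gbp5), against 5.93% of all genes. For the other 5, mouse 16 was the only vehicle-treated mouse within the NTG range. For Iigp1 and Gbp2 it lay below NTG mouse 8 only, and above the other NTG mice. The number of GTPases called depended on the fit: it was 10 with DESeq2, with limma-voom with quality weights, with all 3 groups in a single fit, without mouse 16, and without both mice 16 and 18, but 4 without mouse 18 and 2 without NTG mouse 9 or 10. In each of these fits all 10 were higher in APP/PS1 mice and all 10 had an unadjusted p under 0.05.

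The vehicle-treated APP/PS1 mice differed among themselves more than the mice of the other groups. The highest value was 2.42 times the lowest for Irgm1 to 6.24 times for Iigp1 (median over genes 2.84), compared with 1.14 to 1.94 times in NTG mice (median 1.44) and 1.12 to 1.91 times in CP2-treated mice (median 1.45). The groups differ in size, and the difference in spread was not tested. Mouse 18 was the highest of all 14 mice for 10 of 10 genes and stood at 2.74 times the NTG mean for Gbp7 to 7.34 times for Iigp1. Mouse 16 was the lowest of its group for 9 of 10 genes, the exception being Irgm2, and stood at 1.0 to 1.56 times the NTG mean. Mice 17, 19 and 20 lay between them, with medians over the genes of 2.07, 2.1 and 2.48 times the NTG mean.

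**Figure D2:**
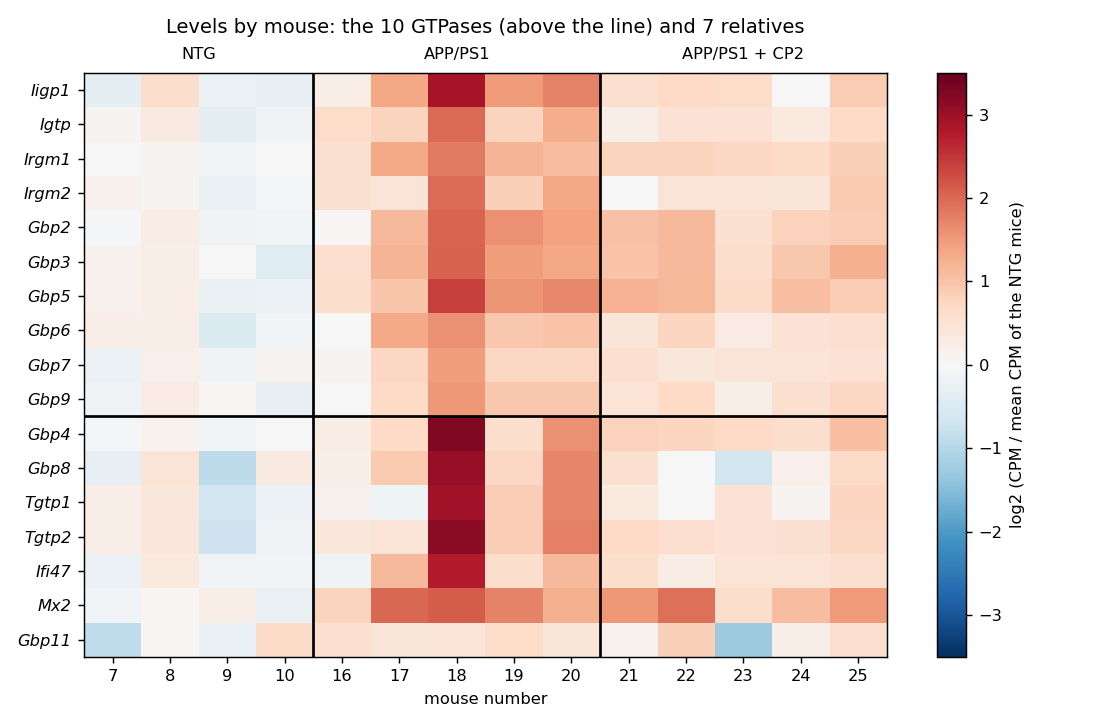
Log2 ratio of CPM to the mean CPM of the NTG mice for the 10 GTPases (above the line) and 7 relatives (below it, chosen after their values were seen), by mouse number on the horizontal axis and by group. Red is above and blue below the NTG mean; mouse 18 is the highest of the 14 mice in each of the 10 upper rows.

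The second comparison asked whether CP2 changed these genes in APP/PS1 mice. It shares the vehicle-treated APP/PS1 mice with the first, so that they are not independent of each other. Of the 10 GTPases 0 passed the adjusted threshold with edgeR (adjusted p between 0.744 and 0.768), 0 with DESeq2 and 0 with limma-voom with quality weights. All 10 had a lower mean with CP2 than with vehicle, with a median log2 fold change of -0.69 for the IRG and -0.45 for the GBP, against -0.01 over all 16407 genes tested. In these data 0.00609% of genes, which is 1 gene, fell at the adjusted threshold.

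An unadjusted p under 0.05 was reached by 5 of the 10, all lower with CP2, against 3.66% of all genes. They were the 4 IRG and Gbp6, and the counts were 6 with DESeq2 and 10 with limma-voom with quality weights. Iigp1 had the largest difference, from a mean of 5.85 ± 3.96 (SD, n = 5) to 2.57 ± 0.545 CPM (SD, n = 5), a log2 fold change of -1.19 ± 0.39 (edgeR unadjusted p = 0.0112). Igtp went from 8.65 ± 3.84 to 5.25 ± 0.667 CPM, or -0.72 ± 0.24 (edgeR unadjusted p = 0.0119). Irgm2 differed by -0.66 ± 0.28, Gbp6 by -0.56 ± 0.23 and Irgm1 by -0.49 ± 0.18, with edgeR unadjusted p values of 0.0383, 0.0355 and 0.0204.

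The other GBP had differences from -0.55 ± 0.28 for Gbp5 to -0.32 ± 0.19 for Gbp7, with edgeR unadjusted p values from 0.0742 for Gbp5 to 0.147 for Gbp9. Gbp2 differed by -0.49 ± 0.28, Gbp3 by -0.41 ± 0.23 and Gbp9 by -0.35 ± 0.22. In no case were all CP2-treated mice below all vehicle-treated mice (0 of 10, against 0.591% of all genes). Mouse 16 lay within or below the range of the CP2-treated mice for 10 of 10 genes.

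**Figure D3:**
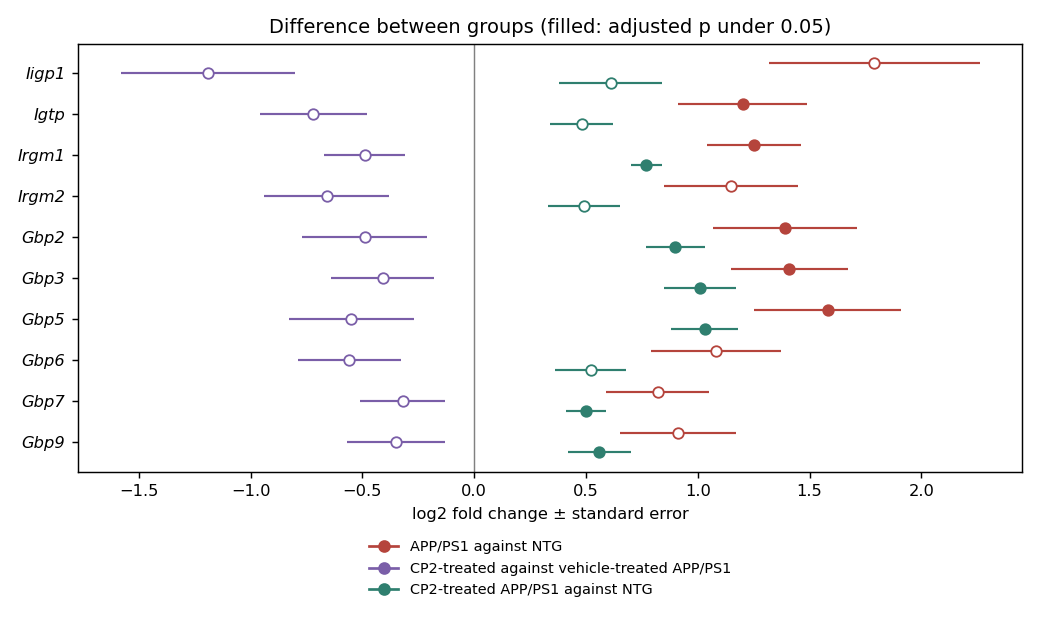
Log2 fold change with its standard error (horizontal axis) of each GTPase in the 3 comparisons, from edgeR fits across all genes. Filled points have an adjusted p under 0.05; none of the CP2 against vehicle points is filled and all lie below 0.

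The median log2 fold change, -0.52 with all mice, changed most when mouse 18 or mouse 16 was left out, in opposite directions. Without mouse 18 the median log2 fold change was -0.29, the range over genes was -0.71 to -0.11, and 3 GTPases had an unadjusted p under 0.05 (Iigp1, Igtp and Irgm1). Without mouse 16 the median was -0.71, the range -1.41 to -0.46, and all 10 had such a p, with adjusted p values from 0.214 to 0.474. Without both, a choice made after the values were seen, the median was -0.45, 9 had an unadjusted p under 0.05 (all but Irgm2) and 0 passed the adjusted threshold, with adjusted p values from 0.273 to 0.688. With each of the other 8 mice left out the median lay between -0.58 and -0.47 and 3 to 5 had an unadjusted p under 0.05.

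**Figure D4:**
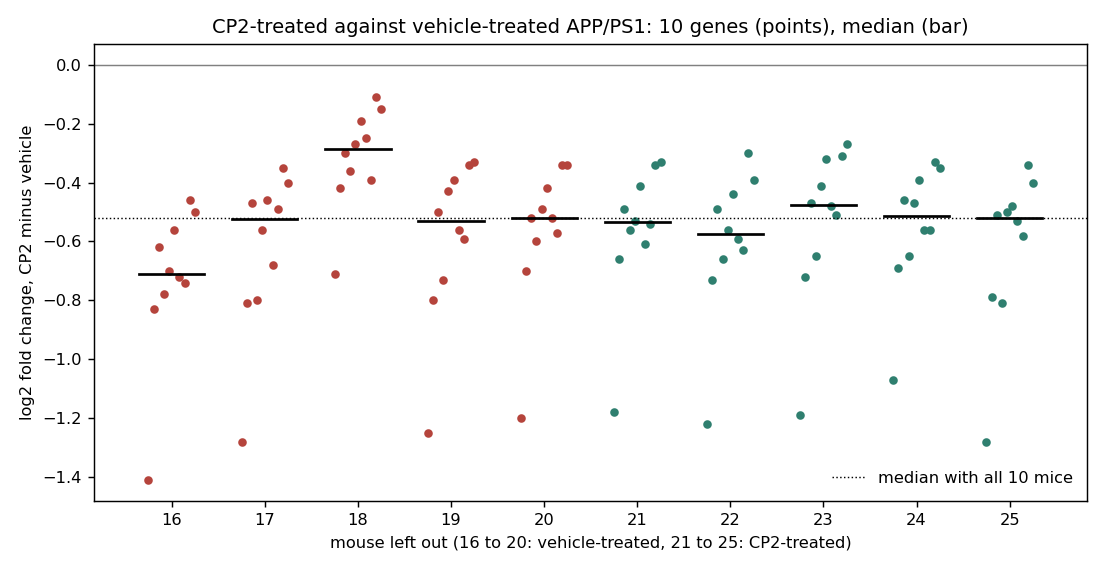
Log2 fold change of the 10 GTPases between APP/PS1 mice on CP2 and on vehicle (vertical axis) with each mouse left out in turn (horizontal axis). Points are genes, bars their median and the dotted line the median with all mice, -0.52; without mouse 18 the median is -0.29 and without mouse 16 it is -0.71.

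The last comparison asked whether CP2-treated APP/PS1 mice still differed from NTG mice. It shares the NTG mice with the first comparison and the CP2-treated mice with the second. Of the 10 GTPases, 6 rose at an adjusted p under 0.05 (edgeR), against 4.56% of all 16416 genes tested: Irgm1 and the GBP other than Gbp6. All 10 had an unadjusted p under 0.05, against 11.6% of all genes. The groups did not overlap for 6 genes (Irgm1, Gbp2, Gbp3, Gbp5, Gbp6 and Gbp7), against 6.00% of all genes. The median log2 fold change was 0.55 for the IRG, 0.73 for the GBP and -0.00 over all genes.

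Gbp5 and Gbp3 had the largest remaining differences, 1.03 ± 0.15 and 1.01 ± 0.16 on the log2 scale, or 2.04-fold and 2.02-fold (edgeR adjusted p = 0.00251 and 0.00307). Gbp2 was higher by 0.90 ± 0.13 (edgeR adjusted p = 0.00254). Irgm1 was higher by 0.77 ± 0.07 and had the smallest adjusted p of the set, 0.00027. Gbp9 (0.56 ± 0.14) and Gbp7 (0.50 ± 0.09) also rose, with edgeR adjusted p values of 0.0393 and 0.00906. The Gbp9 call was kept in 2 of 9 fits with a mouse removed, without NTG mouse 8 or CP2-treated mouse 23, and lost in the others (adjusted p up to 0.101).

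The 3 other IRG did not pass. Iigp1 was at 0.61 ± 0.23, Irgm2 at 0.49 ± 0.16 and Igtp at 0.48 ± 0.14, with edgeR adjusted p values of 0.166, 0.119 and 0.0825. The Gbp6 row was at 0.52 ± 0.16 with an adjusted p of 0.0829. The CP2-treated mice overlapped the NTG range through mice 21 and 24 for Iigp1, through mouse 21 for Igtp and Irgm2, and through mouse 23 for Gbp9. When all 3 groups were fitted together, with a shared estimate of the spread, 2 GTPases passed the adjusted threshold and 6 the unadjusted one.

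Side by side, vehicle-treated and CP2-treated APP/PS1 mice stood above the NTG mice by log2 fold changes of 1.79 and 0.61 for Iigp1, 1.2 and 0.48 for Igtp, 1.25 and 0.77 for Irgm1, and 1.15 and 0.49 for Irgm2. For the GBP the same values were 1.39 and 0.90 for Gbp2, 1.41 and 1.01 for Gbp3, and 1.58 and 1.03 for Gbp5. They were 1.08 and 0.52 for Gbp6, 0.82 and 0.50 for Gbp7, and 0.91 and 0.56 for Gbp9. Compared directly, 0 of 10 passed the adjusted threshold between the CP2 and vehicle groups (edgeR). The values of the vehicle-treated mice ran from 0.61 to 1.31 without mouse 18 and from 0.96 to 2.02 without mouse 16.

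Levels of the genes relative to each other can be read per length, from the deposited RPKM. Igtp and Gbp2 had the highest level in each group, at 1.5 ± 0.273 and 1.29 ± 0.136 RPKM in NTG mice (SD, n = 4), 3.59 ± 1.64 and 3.54 ± 1.58 RPKM in vehicle-treated and 2.15 ± 0.277 and 2.49 ± 0.427 RPKM in CP2-treated APP/PS1 mice (SD, n = 5). Irgm1 and Gbp3 followed, then Gbp9, Irgm2 and Gbp7. Iigp1, Gbp5 and Gbp6 were the lowest in NTG mice, at 0.433 ± 0.141, 0.322 ± 0.0527 and 0.351 ± 0.0765 RPKM, and in CP2-treated mice. In the vehicle group Iigp1, at 1.58 ± 1.09 RPKM, stood above Gbp7 at 1.54 ± 0.555 RPKM. Neighbours in the order overlapped between mice everywhere except between Gbp2 and Irgm1 and between Gbp7 and Iigp1 in NTG mice, and between Irgm1 and Gbp9 and between Gbp7 and Iigp1 in CP2-treated mice. RPKM of the Gbp5 and Gbp6 rows is divided by the length of a joined gene model.

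**Figure D5:**
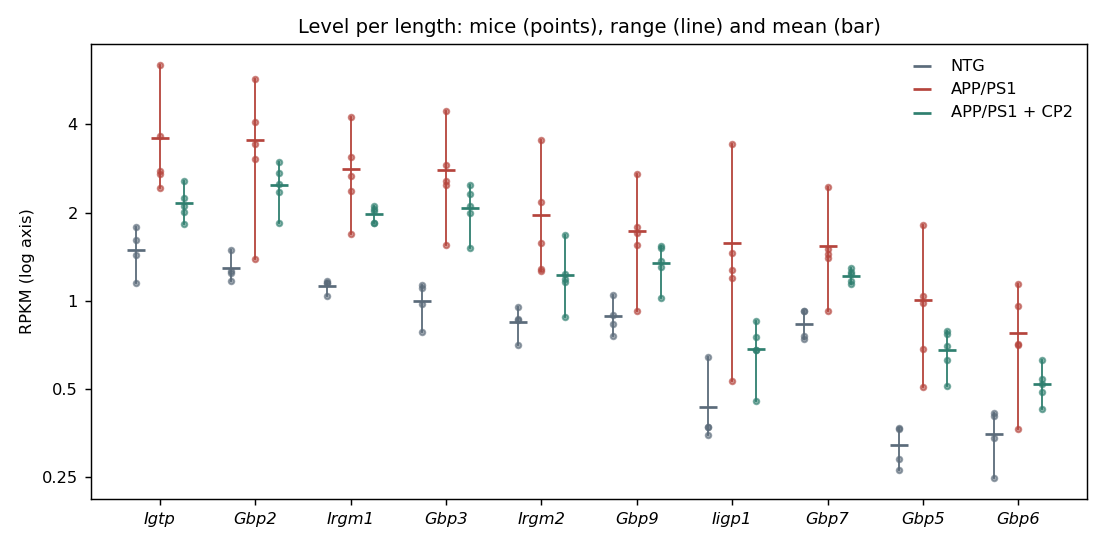
RPKM of each GTPase on a log axis by group, with every mouse (points), the range (line) and the mean (bar), ordered by the mean in vehicle-treated APP/PS1 mice. Igtp and Gbp2 are at the top and the Gbp5 and Gbp6 rows at the bottom.

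Other GTPases, listed as relatives of these, were read in the same mice. Of 19 listed relatives 15 were in the table and 3 passed the filter on low values. Mx2, an antiviral dynamin-like GTPase, rose by 1.67 ± 0.28 in vehicle-treated APP/PS1 mice (edgeR adjusted p = 0.00587) and by 1.41 ± 0.25 in CP2-treated mice (edgeR adjusted p = 0.00698). It was under 1 CPM in every NTG mouse (0.599 to 0.834 CPM) and passed the filter on low values only through the APP/PS1 mice, where it is high. Gbp4 differed by 1.76 ± 0.59 in vehicle-treated mice (edgeR adjusted p = 0.133) and rose by 0.80 ± 0.12 in CP2-treated mice (edgeR adjusted p = 0.00228). Gbp11 passed in neither, and none of the 3 had an adjusted or unadjusted p under 0.05 between the CP2 and vehicle groups.

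Gbp4 measured 1.67 to 1.95 CPM in NTG mice and 2.72 to 3.67 CPM in CP2-treated mice. In vehicle-treated mice 16 to 20 it measured 2.15, 2.92, 16.8, 2.75 and 5.43 CPM. Mouse 18 was thus 5.93 times the median of the other 4 vehicle-treated mice. Of the 15 relatives 12 were highest in mouse 18, the others being Gbp11 (highest in mouse 22), Mx1 (mouse 17) and Irgc1 (mouse 16). Relatives too low to be tested are named here after their values were seen. Tgtp1 and Tgtp2 are effector IRG and near-identical copies, and whether they share reads was not examined. They were at 3.54 and 3.57 CPM in mouse 18 and at most 1.5 and 1.34 CPM in any other mouse. Ifi47, another effector IRG, was at 5.24 CPM in mouse 18 (568 counts) and at most 1.69 CPM elsewhere.

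Of the interferon genes 3 were read, and they were at or near 0. Ifng, which encodes interferon gamma, had 0 to 9 counts per library, the highest in mouse 16, and Ifnb1, a type I interferon gene, had 0 to 2. For Ifna4 0 counts were found in every library, which allows at most 0.0425 CPM in the shallowest library (3 counts, counting error only). Of the 13 tested genes of the interferon gamma pathway 5 rose in vehicle-treated APP/PS1 mice, among them Irf8 (1.72 ± 0.18, edgeR adjusted p = 0.000532), a transcription factor also found in microglia, Nlrc5 (1.71 ± 0.29, adjusted p = 0.00701), an activator of MHC class I genes, the feedback inhibitor Socs3 (1.12 ± 0.19, adjusted p = 0.00672) and the receptor chain Ifngr1 (0.39 ± 0.06, adjusted p = 0.00465). In CP2-treated mice 3 of the 13 rose relative to NTG, among them Irf8 (1.5) and Nlrc5 (1.07). Of all genes 4.34% rose in vehicle-treated and 4.56% in CP2-treated mice at that threshold. Between the CP2 and vehicle groups 0 of 13 passed (edgeR) and 1 had an unadjusted p under 0.05, Nlrc5 (-0.65 ± 0.25). Of all genes 3.66% were lower by the unadjusted rule.

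Of the 12 tested genes of the type I pathway 9 rose in vehicle-treated APP/PS1 mice and 9 in CP2-treated mice relative to NTG. The shares over all genes were 4.34% and 4.56%. The transcription factors Irf7 (1.52 ± 0.32), Irf9 (0.88 ± 0.13) and Stat2 (0.38 ± 0.08), the receptor chain Ifnar2 (0.51 ± 0.07) and the interferon-induced genes Oasl2 (2.04 ± 0.30), Usp18 (1.68 ± 0.26), Rsad2 (1.63 ± 0.29) and Ifit3 (1.44 ± 0.27) were among the 9 of the vehicle-treated mice, with edgeR adjusted p values from 0.00174 to 0.0227. Rsad2 passed the filter only through the APP/PS1 mice, since NTG mouse 7 was at 0.818 CPM. Against vehicle, 0 of 12 passed with CP2 (edgeR), and Oasl2 (-0.69 ± 0.26), Usp18 (-0.58 ± 0.22) and Isg15 (-0.65 ± 0.29) had an unadjusted p under 0.05. Of all genes 3.66% were lower by the unadjusted rule.

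Genes that work with GBP proteins in cell defence were listed as partners, among them inflammasome and autophagy genes. In vehicle-treated APP/PS1 mice 4 of the 11 tested rose: Nlrp3, the sensor of an inflammasome (1.29 ± 0.33), Gsdmd, the pore-forming protein that inflammasomes release (1.10 ± 0.19), Ube2l6, a conjugating enzyme for Isg15 (0.88 ± 0.16), and the ubiquitin ligase Rnf213 (0.85 ± 0.17), with edgeR adjusted p values from 0.00765 to 0.0486. Nlrp3 passed the filter only through the APP/PS1 mice, since NTG mouse 8 was at 0.892 CPM. In CP2-treated mice 3 of them rose relative to NTG (Gsdmd 0.88, Rnf213 0.63 and Ube2l6 0.49). Of all genes 4.34% rose in vehicle-treated and 4.56% in CP2-treated mice at that threshold. Against vehicle 0 of 11 passed (edgeR), and Ube2l6 (-0.40 ± 0.15) alone had an unadjusted p under 0.05. Of all genes 3.66% were lower by the unadjusted rule.

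The lists differed in how far mouse 18 stood out. Its value over the median of the other 4 vehicle-treated mice was 1.55 to 2.76 for the 10 GTPases (median 1.72), 0.93 to 1.75 for the 12 type I genes (median 1.37) and 0.919 to 1.67 for the 13 interferon gamma pathway genes (median 1.01). Mouse 18 was the highest of its group for 10 of 10 GTPases, 10 of 12 type I genes and 4 of 13 interferon gamma pathway genes.

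Markers of cell types were summed in each mouse. The 10 microglia markers summed to 398.9 to 414.6 CPM in NTG mice, 751.1 to 1039 CPM in the vehicle group and 612.1 to 933.8 CPM in the CP2 group. The mean sum was 2.19 times the NTG mean in vehicle-treated and 1.88 times in CP2-treated mice, and 9 and 8 of the 10 markers rose (edgeR adjusted p under 0.05). Mouse 18, at 813.2 CPM, was below 3 of the other 4 vehicle-treated mice, and 0 of 10 microglia markers were highest in it. The 10 endothelial markers summed to 213.8 to 228.7 CPM in NTG, 226.1 to 324.5 CPM in vehicle-treated and 245.4 to 280.5 CPM in CP2-treated mice, and 1 and 5 of them rose relative to NTG. At an adjusted p under 0.05 (edgeR), 4.34% of all genes rose in vehicle-treated and 4.56% in CP2-treated mice. The 18 T and NK cell markers summed to 4.47 to 5.82 CPM in NTG, 7.83 to 29.1 CPM in vehicle-treated, with the highest in mouse 16, where Cd4 alone was 21.6 CPM, and 5.09 to 8.49 CPM in CP2-treated mice. The 8 monocyte and neutrophil markers summed to 2.83 to 10.1 CPM in NTG, 4.03 to 7.65 CPM in vehicle-treated and 3.31 to 5.0 CPM in CP2-treated mice. B and plasma cell markers summed to 2.58 times and blood (hemoglobin and heme) markers to 2.32 times the NTG mean in vehicle-treated mice. The part of these cells in the GTPase levels was not tested.

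The genes most like the GTPases were sought among 16482 genes, as those with the smallest root mean square difference over the 14 mice between a gene's standardized log2 CPM and the mean of the 10 GTPases. They were Ifi44 (0.253), H2-Q6 (0.256), Slfn2 (0.256), H2-Q7 (0.261) and I830012O16Rik (0.272), compared with 0.243 for Irgm1 to 0.418 for Irgm2 within the set. H2-Q6 and H2-Q7 are close paralogs and can share reads. These points share libraries, and each of the 10 GTPases enters the mean it is compared with. Mean Ifi44 was 0.69 CPM in NTG, 2.57 CPM in vehicle-treated and 1.34 CPM in CP2-treated mice, and mean H2-Q7 was 2.35, 7.10 and 4.52 CPM in the same order. Ifi44 passed the filter on low values only through the APP/PS1 mice, where it is high, so its place among the like genes depends on that filter.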

How the data were processed

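The deposited table holds raw counts per gene for 14 libraries and RPKM for the same libraries, both made by the authors. Per the methods and the submitters' processing notes, paired 101-base reads from a library kit that does not mark strand were aligned to mm10 with TopHat and counted with featureCounts on Ensembl genes, with reads over shared regions counted for each gene. The library totals that the deposited RPKM values imply were 1.18 to 1.24 times the count totals, and RPKM served only to compare levels between genes. Genes over 1 CPM (DESeq2 robust CPM) in every mouse of a group were tested on counts with edgeR 4.0.16 quasi-likelihood fits (R 4.3.3), for each pair of groups separately, with TMM factors and Benjamini-Hochberg adjustment. Fold changes are edgeR estimates, and their standard errors derive from the quasi-likelihood F statistic. The fits were run on simulated data with 200 changed genes, the same spread setting for every gene and no outlying mice. That check does not cover the wide spread of the GTPases among vehicle-treated APP/PS1 mice. Alternatives were DESeq2 1.42.0, limma 3.58.1 (voom with quality weights), RLE and upper-quartile factors, no filter, a minimum of 10 counts, all 3 groups together, the share of ribosomal RNA-like counts (2.40 to 7.50%) as covariate, and each mouse left out. Log2 CPM for likeness used a prior count of 2. The labels name mice by number, and the 26 pairs of replicates differed by more than counting noise.

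The 10 GTPases, the gene lists and the rule for naming genes were chosen with earlier results of these data known. All 10 GTPases are given, and from the other lists at most 8 called genes, or the 3 of smallest p. Values of 1 called gene of these lists are not reported here. Sequences are RefSeq promoters of GRCm38.p6. Protein features were not analysed here.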

Additional observations from a re-analysis of the deposited data

Results flagged for a closer look

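In groups of 4 or 5 mice, 51 sets of CPM values (the 10 GTPases and 7 relatives in 3 groups) were examined for a single mouse far from the rest, by the gap to its nearest neighbour as a share of the group's range; chance marks about 1 in 20 sets. The 7 relatives were chosen after their values were seen, so that this rate does not apply to them. In total 5 were marked. NTG mouse 8 was far above the other NTG mice for Iigp1 (2.6 CPM, gap 0.89 of the range) and Gbp2 (4.83 CPM, gap 0.858). Vehicle-treated mouse 18 was far above its group for Gbp4 (16.8 CPM, gap 0.776), Tgtp2 (3.57 CPM, gap 0.731) and Ifi47 (5.24 CPM, gap 0.782). For the 10 GTPases mouse 18 was the highest of its group each time, but its gap stayed under the limit for a group of 5.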

How the results depend on the processing

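For APP/PS1 against NTG mice, 5 of the 10 GTPases were called (adjusted p under 0.05), and the count was 10 with DESeq2, 10 with all 3 groups in a single fit, 10 with limma-voom with quality weights, 8 with the rRNA-like share as covariate, 10 without mice 16 and 18 (chosen after seeing the data), and 2 to 10 with single mice left out (2 without NTG mouse 9 or 10, 10 without mouse 16). Over all genes 932 were called there, 1667 with DESeq2, 1563 with limma-voom and 578 (without NTG mouse 9) to 1474 (without mouse 16) with single mice left out. For CP2-treated against vehicle-treated mice the count of GTPases with an unadjusted p under 0.05 was 5, 10 with limma-voom, 9 without mice 16 and 18, and 3 to 10 with single mice left out, while 0 were called in any of the fits. Over all genes 1 was called there, 23 with DESeq2, 0 with all 3 groups together, 2 with the covariate, 0 without mice 16 and 18, and 0 (without mouse 22) to 1 with single mice left out. For CP2-treated mice against NTG, with all 3 groups in a single fit, 2 in place of 6 GTPases were called and 6 in place of 10 had an unadjusted p under 0.05; over all genes 989 were called, 1670 with DESeq2 and 572 (without NTG mouse 9) to 1123 (without mouse 23) with single mice left out. The cause of these changes was not tested. No GTPase changed direction in any alternative run. No paired analysis was possible because the groups share no mouse numbers. The GTPases had 117 to 3112 counts per library.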
